A study of Mus musculus with 8 samples.

Results

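The genes described here are grouped as genes of the acid-secreting and enzyme-secreting cells of the stomach, though other cells also express Ctse and Bhlha15. They were measured in the small intestine of mouse embryos with and without the transcription factor Rfx6. Atp4a, Atp4b, Cblif (named Gif on the array), Pgc, Pga5, Ctse and Bhlha15 were chosen as probes whose gene name on the array equals one of these symbols. They are 7 of the 36083 named genes or transcripts on the array and have 8 of its 55681 probes, since Pgc has 2. Whole small intestine was taken at stage E18.5 for 4 wild-type samples (Rfx6+/+, labelled control) and 4 samples homozygous for a deleted Rfx6 allele (Rfx6-/-, labelled Rfx6 KO). The deleted allele came from a floxed Rfx6 allele recombined in CMV-Cre mice, and heterozygous offspring were intercrossed, so the deletion was in the whole embryo and not in the intestine alone. Each sample is 1 array of total RNA. The numbers in the titles differ between all samples, but the labels used here do not say that each is a separate embryo, so p-values measure the spread between these samples.

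In the stomach, parietal cells secrete hydrochloric acid through an H+/K+-ATPase, a pump made of the catalytic alpha subunit Atp4a and the glycosylated beta subunit Atp4b. In mice, chief cells secrete pepsinogens, aspartic proteases that acid converts into pepsins, together with intrinsic factor, the protein that carries cobalamin (vitamin B12) to its receptor in the ileum. Bhlha15 (Mist1) is a basic helix-loop-helix factor that builds the secretory apparatus of chief cells and of other enzyme- and antibody-secreting cells. The small intestine normally has neither parietal nor chief cells.

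Levels are given as log2 of the background-subtracted signal minus the 75th percentile of that array, so a level of 0 equals that percentile and a negative level lies below it. Levels of different probes are not compared. A probe counted as detected on an array where the scanner software called it well above background. This was the case for 57.6% to 67.2% of probes per array, and the 75th percentile lay between 636 and 741 signal units. The single probe of the targeted gene does not separate the groups. It read -2.93, -2.91, -2.98 and -3.74 on control arrays 1 to 4 and -2.32, -3.37, -3.11 and -2.25 on Rfx6 KO arrays 1 to 4 (difference 0.38, limma adjusted p 0.5031). This Rfx6 probe starts at base 3337 of the transcript, and whether the deleted part of the gene covers that stretch was not tested. Groups are therefore named as labelled. The arrays carried the markers of the labelled tissue: 10 of 10 genes of small intestinal epithelium, among them Vil1, Cdx2, Fabp1 and Lct, were detected on all 8 arrays.

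Of these parietal and chief cell genes, 6 of 7 were higher on the Rfx6 KO arrays past the threshold (limma, Benjamini-Hochberg adjusted p under 0.05 over 23288 genes), and 0 were lower. Across all genes 2.33% were called higher (543 genes) and 2.6% lower (605 genes). The counts of the gene lists below can be read against these shares. With arrays centred on their median instead, 545 genes were higher and 254 lower. The 4 Rfx6 KO values lay above all 4 control values for 6 of the 7 genes, against 5.4% of all genes tested (all 4 lay below in 9.25%). The exception was Pgc, whose probes disagreed. All 7 genes passed the filter on dim probes, but Atp4a, Atp4b, Cblif and Ctse passed only through the Rfx6 KO group. Pga5, Bhlha15 and the brighter Pgc probe were detected on every control array too. In RNA from whole tissue, more cells of a type and more RNA per cell cannot be told apart.

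**Figure D1:**
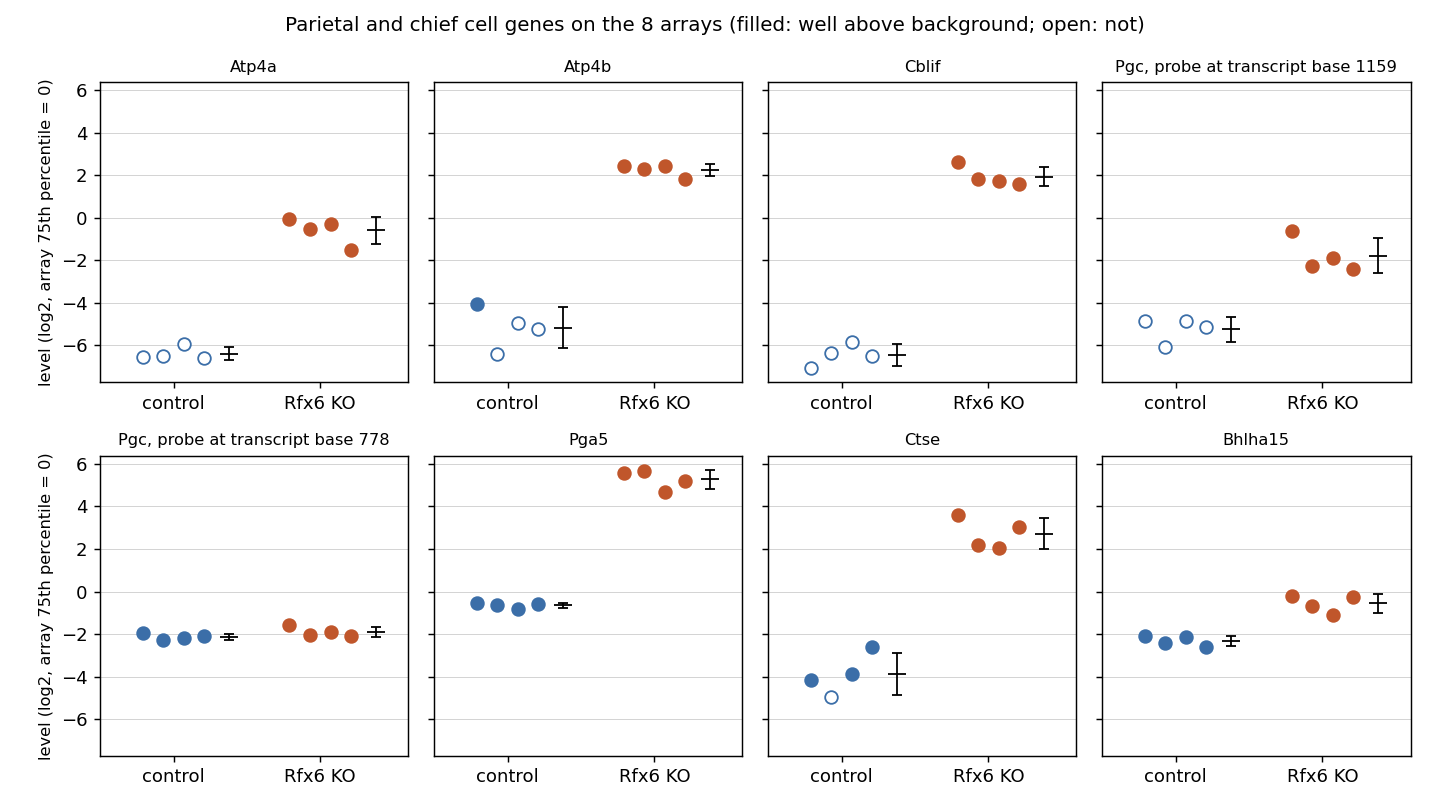
Level of each gene on each array (vertical axis, log2 with the array's 75th percentile at 0), with the 4 control arrays in blue, the 4 Rfx6 KO arrays in orange, filled points detected and open points not; black bars are the group mean and SD. The groups are apart in every panel except that of the Pgc probe at transcript base 778, where the control mean is -2.13 and the Rfx6 KO mean -1.89.

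The catalytic pump subunit Atp4a was not detected on any control array and was detected on all 4 Rfx6 KO arrays. Its probe lies at chr7:31509268-31509327 on mm9, on the plus strand, from base 2796 of the transcript (NM_018731). The probe is shown, 5′ to 3′, because the Atp4a readings rest on this stretch alone.
Atp4a probe: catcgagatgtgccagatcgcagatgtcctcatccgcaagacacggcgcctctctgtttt
The control levels were -6.53, -6.48, -5.95 and -6.57, and those of the Rfx6 KO arrays -0.06, -0.51, -0.29 and -1.50. The groups were far apart, with Rfx6 KO array 4 the lowest of its group. Since the control values are background, only a bound can be given for the size on this scale. The Rfx6 KO mean was at least 16.1-fold higher than the control mean, with every undetected value raised to the lowest detected signal of its array. The measured difference was 5.79 (SE 0.29, limma adjusted p 1.43e-05; exact permutation p 0.0286, the smallest that the 70 splits of 4 against 4 arrays allow). It was 2.80 with normexp background correction and 2.92 from the authors' series matrix, which subtracts no background, and it was past the threshold in both. The bound, like those given below, holds for the background-subtracted signal only, and both of these differences lie below it.

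Atp4b, the beta subunit that the pump needs to reach the membrane, was also higher. Its probe lies at chr8:13386212-13386271 on mm9, minus strand, from base 1264 of NM_009724. The control levels were -4.04, -6.42, -4.94 and -5.24, detected on control array 1 only. On the Rfx6 KO arrays the levels were 2.46, 2.27, 2.43 and 1.84, detected on all 4. The Rfx6 KO arrays lay close together (2.25 ± 0.28, SD, n = 4), while the control arrays spread more widely (-5.16 ± 0.98, SD, n = 4) around background. The difference was 7.41 (SE 0.42, limma adjusted p 2.97e-05), with a 95% interval from 6.45 to 8.37, and its size rests in part on background signal; it was 5.24 with normexp correction and 5.44 from the series matrix.

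Among 19 other genes of acid secretion, 15 could be tested. On the Rfx6 KO arrays 6 of these (40%) were higher and 0 lower, against 2.33% of all genes higher. Of the called genes, Kcne2, Slc26a9 and Chrm3 passed the filter only through the Rfx6 KO group. The median difference of the tested genes was 0.31, against -0.05 over all genes. Among those that rose were 2 potassium channel genes. Kcne2, the beta subunit that keeps the apical potassium channel of parietal cells open in acid, was not detected on any control array and was at least 4.70-fold higher (difference 4.51, SE 0.18, limma adjusted p 2.72e-06). Its difference was 1.59 with normexp correction and 1.76 from the series matrix, past the threshold in both. Kcnj15, an inward rectifier of parietal cells, rose from -3.50 ± 0.09 to -1.20 ± 0.49 (SD, n = 4 each; difference 2.30, SE 0.22, limma adjusted p 6.37e-04); with normexp correction its difference was 1.53. Kcnq1, the pore subunit that pairs with Kcne2, was detected on all 8 arrays and did not pass the threshold (difference 0.31, limma adjusted p 0.5306).

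Slc26a9, a chloride and bicarbonate transporter of the gastric epithelium, was not detected on any control array. Its Rfx6 KO levels were -1.0, -2.20, -2.64 and -1.20, at least 7.14-fold higher (difference 4.76, SE 0.39, limma adjusted p 3.05e-04), and the difference was 1.96 with normexp correction and 1.95 from the series matrix. Car2, the carbonic anhydrase that supplies the protons for the pump, was detected everywhere. Its control levels were -0.51, -0.75, -0.98 and -0.80, and its Rfx6 KO levels 3.69, 2.63, 2.34 and 3.25. Car2 was thus 13.4-fold higher with no overlap (SE 0.27 on a log2 difference of 3.74, limma adjusted p 1.42e-04). Aqp4, the basolateral water channel of parietal cells, rose by 0.88 on the log2 scale (SE 0.14, limma adjusted p 0.0080).

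Of the receptors that start acid secretion, only Chrm3 could be tested. Chrm3, the muscarinic acetylcholine receptor, was detected on 2 control arrays and passed narrowly (difference 0.90, limma adjusted p 0.0419). Its call was lost under 14 of 19 alternatives, 7 of them with 1 array left out, where the adjusted p reached 0.1370 without Rfx6 KO array 1. Hrh2, the histamine receptor, was not detected on any array, and Cckbr, the gastrin receptor, was detected on 1 control and 2 Rfx6 KO arrays, so neither was tested. Slc26a7, an anion exchanger of the parietal cell, was not detected on any array either.

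Of the 15 tested genes, 9 did not pass. Slc4a2, the basolateral chloride-bicarbonate exchanger, differed by -0.16 and the cotransporter Slc12a2 by 0.16. Ezr, which ties the apical membrane to actin, differed by 0.08 and Rab11a, a vesicle-trafficking GTPase, by -0.17. Esrrg, a nuclear receptor that controls parietal cell genes, differed by -0.02 (SE 0.13, limma adjusted p 0.9413). Slc5a5, the iodide transporter, read -0.95 on control array 4 against -7.22 to -6.48 on the other control arrays, and its difference of 2.49 did not pass (limma adjusted p 0.3134).

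Few relatives of the pump subunits passed. Of 9 listed, 8 were tested, and 1 (12.5%) was higher and 0 lower, against 2.33% of all genes higher. The median difference was -0.03, against -0.05 over all genes. Atp1b1, a beta subunit of the Na+/K+-ATPase, differed by -0.16 and did not pass (limma adjusted p 0.3791). Fxyd3, a small regulator of ion-transporting ATPases, rose from 0.79 ± 0.12 to 2.49 ± 0.48 (SD, n = 4 each; SE 0.21, limma adjusted p 0.0029). Atp12a, the non-gastric H+/K+-ATPase, was detected on 2 control and 3 Rfx6 KO arrays and was not tested.

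Cblif, which encodes intrinsic factor, was detected on the Rfx6 KO arrays only. Its probe lies at chr19:11837878-11837937 on mm9, plus strand, from base 1472 of NM_008118. The control levels were -7.08, -6.37, -5.83 and -6.51, none of them detected, and the Rfx6 KO levels were 2.62, 1.82, 1.74 and 1.58. In signal units the controls read 4.90 to 11.3 and the Rfx6 KO arrays 1896 to 4564. The mean was at least 92.8-fold higher (difference 8.39, SE 0.29, limma adjusted p 1.08e-06; exact permutation p 0.0286). With normexp correction the difference was 5.08 and from the series matrix 5.29.

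The genes that take up and carry the vitamin were already present in both groups. Of 15 listed genes of cobalamin handling, 14 were tested, all of them detected on all 8 arrays, and 2 were higher and 0 lower; the median difference was 0.02. Cubn and Amn, the ileal receptor for intrinsic factor with its cobalamin, differed by 0.48 and 0.15 and did not pass (limma adjusted p 0.2596 and 0.5073). Tcn2, the plasma carrier, differed by -0.02 (limma adjusted p 0.9423). Lrp2 (megalin), an endocytic receptor that works with Cubn, rose from 1.14 ± 0.39 to 2.61 ± 0.31 (SD, n = 4 each; limma adjusted p 0.0063). Abcc1, an exporter that also carries cobalamin out of cells, rose by 0.48 (SE 0.07, limma adjusted p 0.0080).

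Of the pepsinogens, Pga5 (pepsinogen A) was detected on every control array and rose on every Rfx6 KO array. The probe covers 60 bases spread over 134 positions, chr19:10743903-10744036 on mm9, minus strand, from base 993 of NM_021453. It is shown because it is the pepsinogen probe that was detected on every array with the groups apart.
Pga5 probe: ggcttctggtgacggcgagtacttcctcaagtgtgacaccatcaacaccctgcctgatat
The control levels were -0.55, -0.63, -0.82 and -0.59, or 364.7 to 463.9 signal units. On the Rfx6 KO arrays they were 5.59, 5.65, 4.69 and 5.20, or 18425.6 to 35712.2 units. Both groups were tight (SD 0.12 and 0.44, n = 4 each) and far apart. Pga5 was 60.9-fold higher (log2 difference 5.93, SE 0.20, 95% interval 5.48 to 6.38, limma adjusted p 8.93e-07). Because every array detected it, this size does not rest on background; it was 5.69 with normexp correction.

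Pgc (pepsinogen C, progastricsin) gave 2 answers, depending on the probe. The array carries a probe from base 778 of the transcript, at chr17:47869392-47869451 on mm9, and one from base 1159, at chr17:47871203-47871263. Both are shown, since the result for Pgc turns on which is read. The later probe has 60 bases, but its listed coordinates span 61 positions.
Pgc probe at base 778: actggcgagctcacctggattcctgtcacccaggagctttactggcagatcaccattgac
Pgc probe at base 1159: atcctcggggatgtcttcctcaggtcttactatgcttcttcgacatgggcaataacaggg
The probe at base 778, the brighter one, represents the gene in the fit and was detected on all 8 arrays. Its control levels were -1.97, -2.29, -2.19 and -2.08 and its Rfx6 KO levels -1.57, -2.03, -1.88 and -2.09. The groups overlapped, and the difference of 0.24 did not pass (SE 0.13, 95% interval -0.05 to 0.53, limma adjusted p 0.3354; exact permutation p 0.143).

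The probe at base 1159 was detected on no control array and on all 4 Rfx6 KO arrays. Its control levels were -4.85, -6.08, -4.85 and -5.15 and its Rfx6 KO levels -0.61, -2.27, -1.89 and -2.40. These groups did not overlap, and Rfx6 KO array 1 stood highest. The Rfx6 KO mean was at least 6.80-fold higher (difference 3.44, SE 0.42). In a fit of all 31681 probes that passed the filter, where 2.01% were called higher, its limma adjusted p was 0.0031. The difference was 1.46 with normexp correction and 1.66 from the series matrix, past the threshold in both.

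The disagreement was also measured within arrays, where scaling cancels, in a contrast chosen after it had been seen. The later reading minus the earlier one was -3.10 ± 0.49 on the control arrays and 0.10 ± 0.59 on the Rfx6 KO arrays (SD, n = 4 each). Because the later probe was at background on the control arrays, the size of this change is only bounded: with undetected values raised to the lowest detected level of their array, the control contrast was -2.42 ± 0.43 and the change at least 2.53 on the log2 scale. All 4 Rfx6 KO arrays lay above all 4 control arrays on that scale (exact two-sided permutation p 0.0286, the smallest possible), which is no evidence independent of the probes' own values. When the readings of both probes were averaged, Pgc passed the threshold (difference 1.84, limma adjusted p 0.0062). So the call for Pgc depended on the probe, and the cause was not tested.

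**Figure D2:**
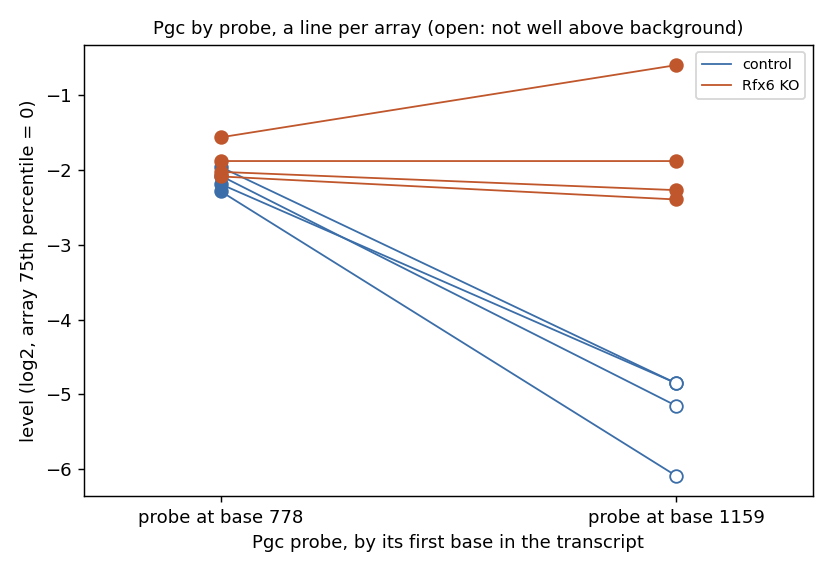
Level of each Pgc probe (vertical axis, log2 with the array's 75th percentile at 0) with a line joining the readings of each array, control in blue and Rfx6 KO in orange; open points were not detected. The groups overlap at base 778 and are apart at base 1159, where no control array detected the probe; lines show the change within an array, as levels of different probes are not comparable.

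Ctse (cathepsin E), an intracellular aspartic protease of gastric surface and other epithelial cells, rose from low levels. Its probe lies at chr1:133571990-133572049 on mm9, plus strand, from base 2025 of NM_007799. The control levels were -4.18, -4.94, -3.86 and -2.59, detected on all but control array 2, and the Rfx6 KO levels 3.61, 2.18, 2.04 and 3.05. Control array 4 was the highest control and still far below the lowest Rfx6 KO array. The difference was 6.61 (SE 0.51, 95% interval 5.46 to 7.77, limma adjusted p 2.16e-04). Its size rests in part on background signal: it was 5.27 with normexp correction and 5.47 from the series matrix, past the threshold in both.

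Among 6 relatives of the pepsinogens and cathepsin E, all tested, 2 were higher and 0 lower, with a median difference of 0.29. Cym (chymosin), the milk-clotting protease of the young stomach, was detected on all arrays. Its control levels were 1.84, 1.88, 2.40 and 3.41 and its Rfx6 KO levels 9.63, 9.09, 8.92 and 9.20. This was a 114-fold rise (log2 difference 6.83, SE 0.33, limma adjusted p 1.15e-05), and a second Cym probe rose by 5.80 (limma adjusted p 9.51e-07 in the fit of all probes). Bace2, a membrane-bound aspartic protease, was 3.04-fold higher (SE 0.19 on the log2 scale, limma adjusted p 0.0039), with control array 2 left out because its spot was an outlier. A second Bace2 probe, detected on all arrays, rose by 1.65 (limma adjusted p 0.0025 in the fit of all probes). The Bace2 call was nevertheless lost when its probes were averaged (limma adjusted p 0.0720), and the reason was not tested. The lysosomal protease Ctsd differed by 0.13 and did not pass, nor did Ren1 (0.32), Napsa (0.27) or Bace1 (0.08).

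Other chief cell and gastric secretory genes did not move in 1 direction. Of 8 listed, 7 were tested, 2 were higher and 1 lower, with a median difference of 0.68. Lipf, gastric lipase, fell: its control levels were -0.50, -0.63, -0.87 and -0.96 and its Rfx6 KO levels -3.30, -3.38, -3.21 and -2.55. The groups did not overlap, and the difference was -2.37 (SE 0.19, 95% interval -2.79 to -1.94, limma adjusted p 2.63e-04), opposite in sign to the pepsinogen and intrinsic factor genes. Tff2, a trefoil peptide of mucous neck cells, rose by 5.73 (SE 0.88, limma adjusted p 0.0077), and Gkn3, a gastrokine, by 4.57 (SE 0.53, limma adjusted p 0.0021). Control array 4 was the highest control for both, at 1.27 and 0.28. Muc6, the neck cell mucin, differed by 1.42 and Chia1, the acidic chitinase, by 0.19, and neither passed (limma adjusted p 0.4822 and 0.7462).

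Bhlha15 changed least of the called genes. Its probe lies at chr5:144955175-144955234 on mm9, plus strand, from base 3358 of NM_010800, and was detected on all 8 arrays. The control levels were -2.08, -2.44, -2.15 and -2.61 and the Rfx6 KO levels -0.19, -0.66, -1.12 and -0.27. The groups did not overlap. Bhlha15 was 3.38-fold higher (log2 difference 1.76, SE 0.21, 95% interval 1.28 to 2.24, limma adjusted p 0.0025).

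Genes tied to Bhlha15 in secretory cells differed by less than Bhlha15 itself. Of 10 listed targets and secretory genes, 9 were tested, and 2 (22.2%) were higher and 0 lower, against 2.33% of all genes higher. The median difference was 0.39, against -0.05 over all genes. Rab3d, a secretory vesicle GTPase and Bhlha15 target, rose by 0.58 (SE 0.10, limma adjusted p 0.0149), but not without Rfx6 KO array 1 (adjusted p 0.0634). Spdef, a factor of mucus-secreting cells, passed narrowly at 0.50 (limma adjusted p 0.0454); the call was lost in 12 of 20 alternatives, with an adjusted p of 0.1485 without Rfx6 KO array 1. Xbp1, the regulator of the secretory endoplasmic reticulum that acts upstream of Bhlha15, differed by -0.08 and Gjb1, a gap junction protein, by 0.18, neither past the threshold. Creb3l4 (0.39, adjusted p 0.0511), Cckar (0.59, adjusted p 0.0936) and Atp2c2 (0.42, adjusted p 0.0881) did not pass either.

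**Figure D3:**
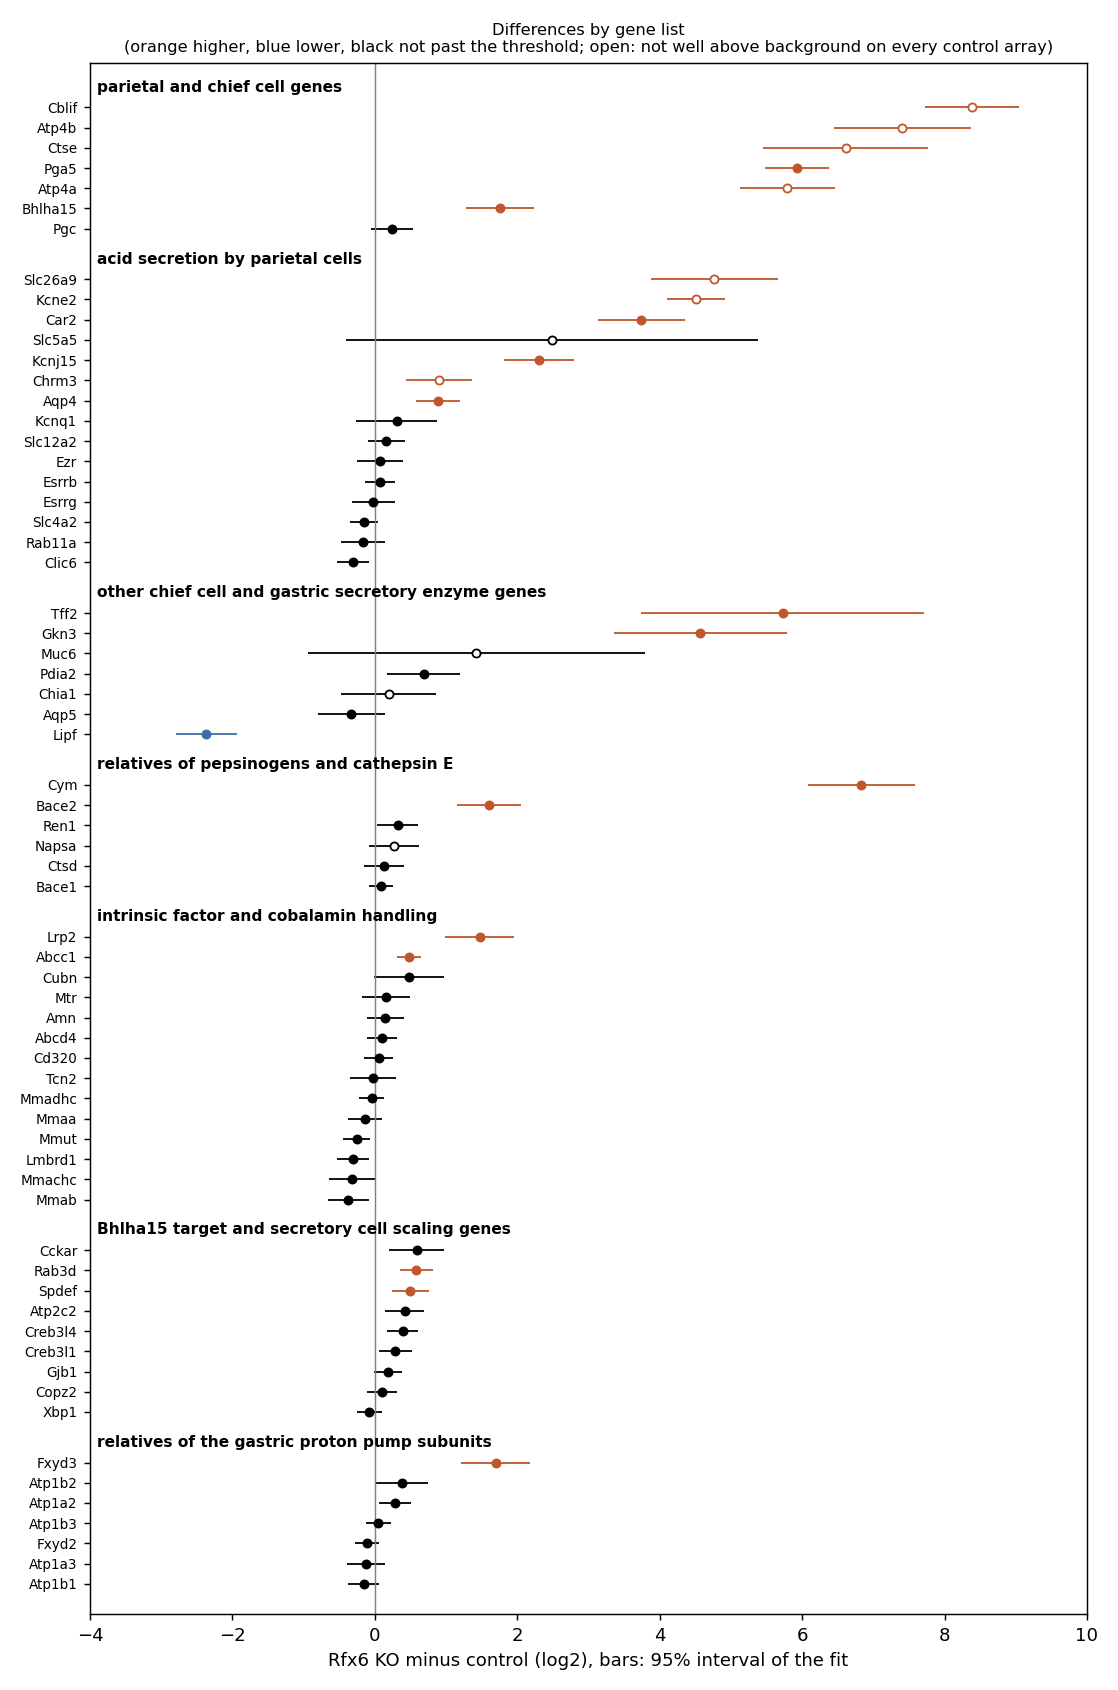
Difference Rfx6 KO minus control (horizontal axis, log2) with its 95% interval for tested genes of the lists, orange higher, blue lower and black not past the threshold; open points were not detected on every control array. Pga5 (5.93), Cym (6.83) and Car2 (3.74), detected on every array, lie far to the right, and Lipf, at -2.37, is the called gene to the left of 0.

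The genes varied together only in part among the Rfx6 KO arrays. Rfx6 KO array 1 gave the highest reading for 7 of the 8 probes, the exception being Pga5, highest on array 2. Rfx6 KO array 4 was the lowest for 5 probes (Atp4a, Atp4b, Cblif and both Pgc probes) and array 3 for the other three (Pga5, Ctse and Bhlha15). The spread was largest for the Pgc probe at base 1159 (SD 0.82) and smallest for the one at base 778 (SD 0.23).

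Profiles over the 8 arrays were compared by the root mean square difference after each was centred on its own mean, which is a description over these arrays. Genes outside the 7 described here were ranked. Nearest to Pga5 were Ly6d (0.25), Bpifb5 (0.31) and Gsdma2 (0.42); Bpifb5 was not detected on any control array, so its distance rests in part on background. For Ctse, itself undetected on control array 2, the nearest were Cym (0.39), Anxa10 (0.45) and Sult1c2 (0.46). Sult1c2 was detected on only 2 control arrays, so its distance also rests in part on background. No ranking is given for Atp4a, Atp4b and Cblif, whose control readings are background on 3 or 4 of the 4 arrays. Bhlha15 lay among AA467197 (0.12), Fxyd3 (0.14) and Tnni2 (0.16). The Pgc probe at base 778 was nearest to Aurkc (0.06), Uck2 (0.06) and Serpinf2 (0.08), none of which passed the threshold.

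Some markers of other gastric cells moved with these genes. Of 8 markers of surface mucous and neck cells, 6 (75%) were higher (Gkn1, Gkn2, Tff1, Tff2, Vsig1 and Anxa10) and 0 lower, against 2.33% of all genes higher. Of these 6, Gkn1, Gkn2, Tff1 and Vsig1 passed the filter only through the Rfx6 KO group. The mucins Muc5ac (difference 0.61, limma adjusted p 0.1131) and Muc6 (1.42, limma adjusted p 0.4822) did not pass the threshold. The mean level of the 8 markers ran from -5.16 to -2.75 on control arrays, highest on control array 4, and from 1.76 to 2.66 on Rfx6 KO arrays. Its size rests in part on background signal, since Gkn2 and Vsig1 were not detected on any control array. Gkn1, Tff1 and Muc6 were detected on 2 control arrays each. Of 6 tested forestomach and oesophagus markers, 2 were higher; the mean level ran from -1.37 to -1.0 on control and from -0.49 to 1.71 on Rfx6 KO arrays. Both of these calls were often lost when 1 array was left out, Krt13 in 7 such fits and Krt15 in 3. The highest limma adjusted p, 0.1374 for Krt13 and 0.0727 for Krt15, came without Rfx6 KO array 1. A second Krt13 probe, detected on no control array and all 4 Rfx6 KO arrays, was at least 33.1-fold higher (limma adjusted p 0.0056 in the fit of all probes), against a log2 difference of 0.81 for the probe used. With the Krt13 probes averaged, the adjusted p was 0.0046. The part of these cell types in the results was not tested. Barx1, which marks the mesenchyme of the stomach, was not detected on any array, and Six2 was detected on 1 Rfx6 KO array only. Of 4 tested genes of stomach mesenchyme and stomach regulators, 1 was higher (Foxa3).

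Some intestinal markers were lower. Of the 10 small intestinal markers, 4 (40%) were lower (Fabp1, Fabp2, Lct and Apoa4) and 0 higher, against 2.6% of all genes lower. Vil1, Cdx1, Cdx2, Alpi, Apoa1 and Sis did not pass. The mean level was 5.96 to 6.26 on control and 5.81 to 6.06 on Rfx6 KO arrays. Among 9 tested Paneth and goblet cell genes, Mmp7 was higher and Lyz1 and Zg16 lower. Some of these calls were lost when 1 array was left out, in 7 such fits for Fabp2, 6 for Lct, 4 for Apoa4 and 4 for Lyz1. The highest limma adjusted p was 0.0982 for Lct and 0.0835 for Apoa4, both without Rfx6 KO array 1. For Fabp2 it was 0.1482, without Rfx6 KO array 2, and for Lyz1 0.0867, without control array 1.

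Markers of cells outside the gut lining, among them cells that use Bhlha15 or digestive enzymes, were also followed. None of 8 tested exocrine pancreas genes was called by limma at an adjusted p under 0.05. Their mean level ran from 0.29 to 1.75 on control and from -0.38 to 1.26 on Rfx6 KO arrays, while Ptf1a, the acinar cell regulator, and Pnlip were not detected on any array. Plasma and B cell genes (4 tested) and myeloid genes (7 tested) gave 0 calls, as did 5 erythroid genes, with Klf1 and Rhag not detected on any array. Of 7 liver genes, Ttr and Fgb were higher, and the mean level ran from 2.78 to 4.19 on control and from 3.71 to 4.43 on Rfx6 KO arrays.

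Promoters of 4 of the 7 genes are in the RefSeq promoter table for GRCm38.p6 (Atp4a, Cblif, Pgc and Bhlha15). The 250 bases before the start of Atp4a and of Pgc are shown, on the plus strand, because these 2 held searched letters close to the start. Capitals mark the match. In Atp4a it is CAGCTG, the letters of an E-box. The match in Pgc is TATAAA, the letters that the TATA-binding protein recognises.
Atp4a, chr7:30711959-30712208: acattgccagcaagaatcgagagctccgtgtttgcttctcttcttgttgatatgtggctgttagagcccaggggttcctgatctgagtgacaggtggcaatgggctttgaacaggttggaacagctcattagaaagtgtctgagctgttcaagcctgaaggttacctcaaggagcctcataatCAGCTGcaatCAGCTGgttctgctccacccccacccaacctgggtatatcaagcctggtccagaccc
Pgc, chr17:47726592-47726841: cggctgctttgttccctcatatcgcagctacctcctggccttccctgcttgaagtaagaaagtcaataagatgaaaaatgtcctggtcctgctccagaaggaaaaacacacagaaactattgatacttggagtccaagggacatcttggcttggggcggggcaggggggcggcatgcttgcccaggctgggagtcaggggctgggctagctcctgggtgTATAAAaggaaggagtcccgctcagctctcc
Atp4a holds CAGCTG at 67 to 62 and at 57 to 52 bases before the start, and Pgc holds TATAAA at 31 to 26 bases before it. Of 32851 mouse promoters of this length, 13.0% hold CAGCTG and 12.4% hold TATAAA on either strand. Bhlha15 holds GATAAG, the letters of GATA factors, on the minus strand at 238 to 233 bases before the start (6.5% of promoters). AAGGTCA (letters bound by nuclear receptors such as Esrrg), CATATG (an E-box bound by Bhlha15) and GTTGCC (part of the site of RFX factors) were in none of the 4 windows, against 4.1%, 3.5% and 10.4% of promoters. These are matches of letters on both strands and no test of binding.

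**Figure D4:**
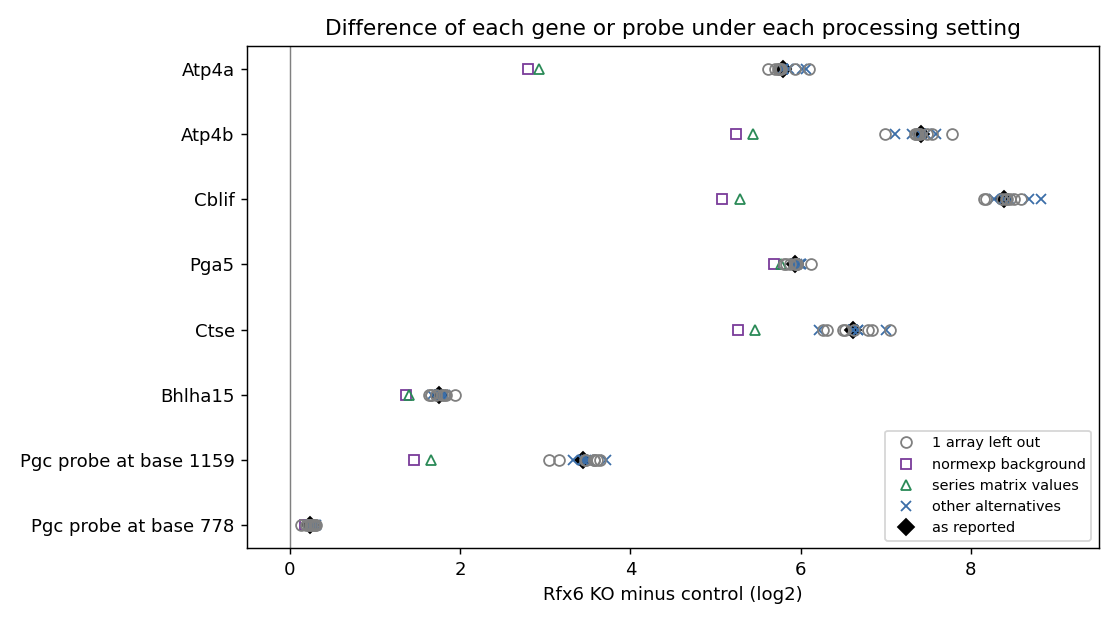
Difference Rfx6 KO minus control (horizontal axis, log2) of each gene, and of each Pgc probe, under each processing setting, with the reported value as a black diamond. Every value lies to the right of 0; normexp correction and the series matrix give the smallest differences for genes at background in the controls, such as 2.80 and 2.92 for Atp4a.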

How the data were processed

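The 8 single-colour Agilent arrays lay on 1 slide and shared 1 scan. Position on the slide was not balanced, so row and group partly coincide. Control array 1 sat in row 1 with Rfx6 KO arrays 2, 3 and 4. Rfx6 KO array 1 sat in row 2 with control arrays 2, 3 and 4. Allowing for row in the limma fit left 392 higher and 426 lower calls. Complementary RNA was labelled with cyanine 3, per the labels' protocols. The deposited scanner files hold an intensity per spot. Background was already removed from it by Feature Extraction 10.10.1.1, a version named in the file headers and the submitters' processing notes. The probe coordinates are mm9. The authors' series matrix holds an intensity without background subtraction, with column medians of 129.625 each; its values lay within 0.5 units of quantile-normalized spot medians, and its direction is that of the signal.

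Control spots (3671 of 62976) were left out, and outlier spots were set aside. Spots of a probe were averaged, signals were scaled to the array's 75th percentile and log2 was taken. Probes detected on all 4 arrays of at least 1 group were kept, and the probe with the highest mean represented each gene. Of 55681 probes, 26320 were named by a current symbol, 2864 by accession, 492 by synonym and 26005 kept the file's name. Groups were compared with limma 3.58.1 (R 4.3.3; lmFit and eBayes, two-sided, Benjamini-Hochberg adjustment, threshold 0.05) and single values with exact permutation tests. The fit was tested on simulated data. The number of arrays limits the precision.

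The genes, lists, motifs and tests were chosen with earlier results of these data known. Named genes are the 7 genes in all their probes, the called genes of each list with others a role needed, and the 3 nearest profiles of each gene outside the 7; those of Atp4a, Atp4b and Cblif, and some listed genes, are left out of the text. Alternatives were normexp (offset 50), quantile normalization, centring on the median, dropping the filter, requiring detection on all 8 arrays, the mean of probes, every probe, the series matrix, replicate or slide row blocks, array weights, a trended robust prior and leaving out each array. Following each Pgc probe and its contrast within arrays was added after the data were seen.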

Additional observations from a re-analysis of the deposited data

Results flagged for a closer look

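Atp4a read -5.95 on control array 3, apart from the other control arrays, which lay between -6.57 and -6.48. No control array detected Atp4a, so these are background readings. It was the only such value among 48 groups of 4 arrays examined, where chance alone gives about 2.4. These groups did not cover every gene named here. Slc5a5, outside them, read -0.95 on control array 4 against -7.22 to -6.48 on the other control arrays. Krt14, also outside them, read 1.19 on control array 3 against -1.73 to -1.52 on the others.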

How the results depend on the processing

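All of the 6 called genes kept their direction and their call under each alternative that gave a value (19 or 20 each). Atp4a, Atp4b, Cblif, Ctse and the Pgc probe at base 1159 gave none under the filter on all 8 arrays. Differences ran from 2.80 to 6.10 for Atp4a, 5.24 to 7.78 for Atp4b, 5.08 to 8.82 for Cblif, 5.69 to 6.13 for Pga5, 5.27 to 7.05 for Ctse and 1.37 to 1.94 for Bhlha15. Pgc passed with the mean of its probes (1.84), because that average includes the other probe, and otherwise did not.

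Over all genes, 605 were lower and 543 higher; the counts were 254 lower with median centring, 202 and 298 without the filter, and 1271 and 829 with array weights; the cause was not tested. With 1 array left out they ran from 217 to 587 lower and from 335 to 503 higher. The lower count fell by over 1.5 times without control array 1 (248), 3 (315) or 4 (342) and Rfx6 KO array 1 (217) or 2 (232), and the higher count without control array 1 (354) and Rfx6 KO array 1 (335) or 2 (343).

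Deviations of same-numbered arrays correlated at -0.07, -0.17, 0.07 and -0.41 for numbers 1 to 4, so the numbers do not pair the arrays. Blocking on the replicate number left 148 lower and 268 higher genes, and the 6 called genes remained past the threshold, the weakest being Bhlha15 (adjusted p 0.0205). Abcc1 (0.0861), Chrm3 (0.1462), Spdef (0.0999), Fabp1 (0.0563), Fabp2 (0.1497), Lct (0.0731), Krt13 (0.1167), Krt15 (0.0564) and Lyz1 (0.1303) did not pass with this block. Dim probes limit the sizes for genes at background in the controls.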
